A study of Mus musculus with 8 samples.

Results

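Genes of intestinal vitamin A metabolism were followed in epithelial cells from lactating mice with and without Rank in the intestinal epithelium. They were listed by name as 10 of the 54532 genes of the count table, and comprise Rbp2, Lrat, Bco1, Plb1, Isx, Aldh1a1, Dhrs3, Rdh7, Adh1 and Rarb. Rank (gene symbol Tnfrsf11a) is a receptor that activates NF-κB. RNA came from the intestine of 8 mice at day 5 of lactation, 4 of them WT and 4 Rank-knockout, and each mouse gave 1 library that reads the 3′ ends of polyadenylated transcripts. Per the study's methods, all lines were on a C57BL/6J background, a floxed Rank allele was deleted by Cre driven from the Villin1 promoter, which is active in the intestinal epithelium, and both groups were female littermates mated to wild-type males. Whether WT mice carried the floxed allele or Cre, and the age of these mice beyond a general range for the study's littermates, were not given in the sources used here, and the labels name no segment of the intestine. Cells were freed by mincing, dissociation and passage through a strainer, and no sort is described.

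Vitamin A reaches the gut as retinyl esters and as carotenoids such as β-carotene. In the absorptive enterocyte, carotenoids are cleaved to retinaldehyde and reduced to retinol, which is bound by RBP2, esterified by LRAT and packed into chylomicrons for the lymph. A smaller part is oxidised in steps by retinol and retinaldehyde dehydrogenases to retinoic acid, which binds nuclear receptors and induces, among other genes, Isx, whose product represses Bco1 and the carotenoid receptor gene Scarb1.

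In Rank-knockout cells 7 of the 8 measurable genes of this set had a negative fold change, as did 48.3% of all tested genes, and the difference passed the test for 2 of them, Lrat and Aldh1a1, where 14.6% of all tested genes were lower. All 20 villus enterocyte markers were lower in the same libraries. Lrat, which encodes lecithin:retinol acyltransferase, and Aldh1a1, a retinaldehyde dehydrogenase, both fell to less than their lowest WT value in every Rank-knockout library. Rdh7 also did not overlap between genotypes but missed the threshold, Rbp2, Adh1, Bco1 and Dhrs3 overlapped, and Isx differed least. Plb1 and Rarb were at or near 0 counts.

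Differences were tested with edgeR's quasi-likelihood test on the counts, with p values adjusted by the Benjamini-Hochberg method over 9855 genes and a threshold of 0.05. Of those genes 14.6% were lower and 15.8% higher in Rank-knockout, and 28.8% did not overlap between genotypes in read counts scaled to library size (CPM, on TMM-adjusted library sizes). Against this background 2 of the 8 tested genes of the set were lower, 0 were higher, and 3 did not overlap. Their median log2 fold change was -0.88, beside 0.02 over all tested genes. By DESeq2 4 of the 8 were lower, Rdh7 and Adh1 in addition, where 12.7% of all genes were, and by limma-voom the same 4, where 14.4% were. With no filter on low counts, edgeR called 5, Rbp2 in addition, where 6.66% of all genes were called lower.

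**Figure D1:**
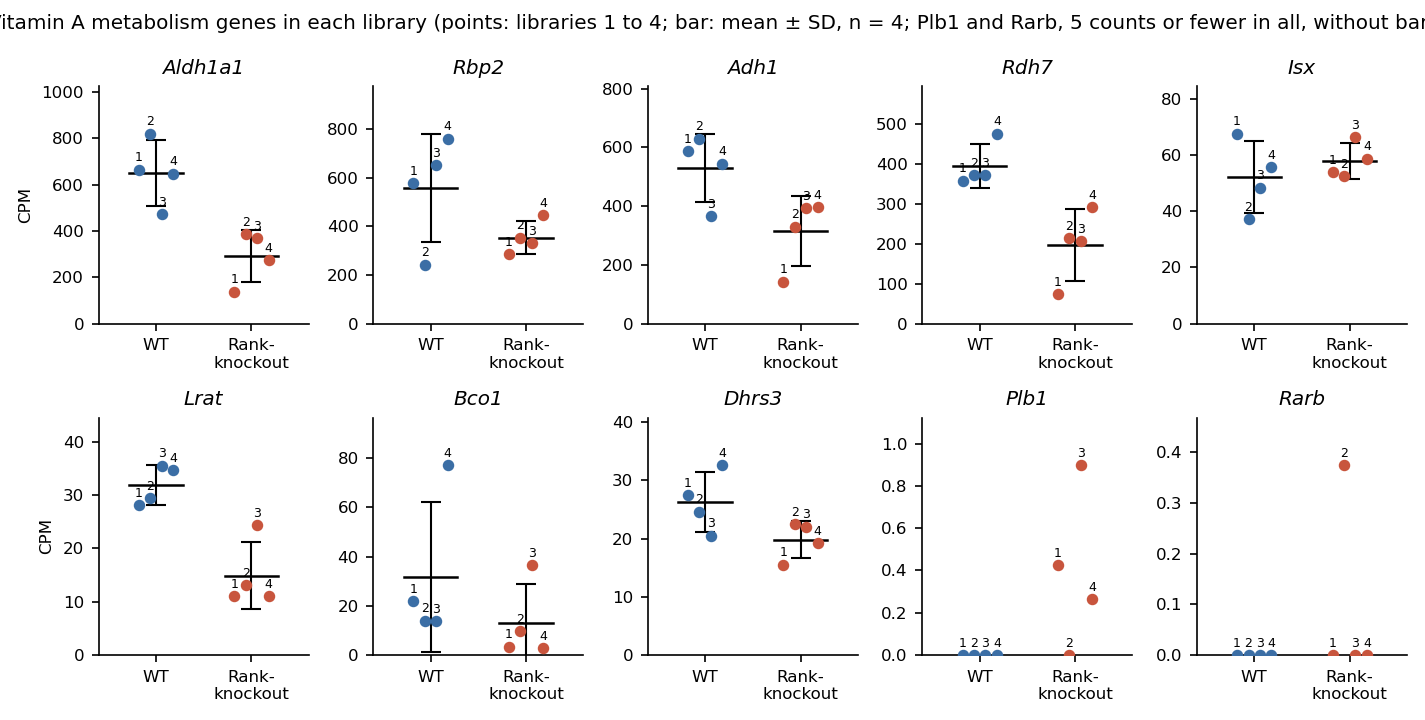
CPM (linear axes from 0) of each of the 10 genes in the 4 WT and 4 Rank-knockout libraries, numbered by library, with mean ± SD (n = 4) for all but Plb1 and Rarb. Aldh1a1, Lrat and Rdh7 do not overlap between genotypes, WT library 2 is low for Rbp2, and WT library 4 and Rank-knockout library 3 are high for Bco1.

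Total counts per library ran from 1530781 to 4335653, and 3 of the 4 WT totals lay below all Rank-knockout totals. The epithelial origin of the cells was seen in the summed level of 20 villus enterocyte markers, 29712 to 39977 CPM in WT and 15474 to 22057 CPM in Rank-knockout, with all 20 lower in the mutant. Of 20 replication and cell cycle genes 19 were tested and all 19 were higher, from 685 to 1038 CPM summed in WT to 1667 to 2654 CPM in Rank-knockout. Bulk RNA cannot tell fewer cells of a type from less RNA per cell, and the part of these shifts in the values below was not tested. Markers of 14 stromal, endothelial and muscle genes summed to between 8.54 and 23.6 CPM over both genotypes, with Lum and Cdh5 at 0, and those of 12 T cell, B cell and myeloid genes summed to 30.0 to 51.3 CPM in WT and 22.4 to 37.5 CPM in Rank-knockout, with Cd79a and Adgre1 at 0. The 4 colon markers summed to at most 5.46 CPM in any library. Tnfrsf11a itself went from 60.7 ± 17.7 CPM to 38.0 ± 8.64 CPM (mean ± SD, n = 4 each), with overlap (log2 fold change -0.67, adjusted p = 0.0321), but 3′ tags may fall outside what Cre removes and so are no check of the genotype.

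In WT cells the genes of the set fell into an upper and a lower group of levels. Since each transcript gives about 1 tag at its 3′ end, CPM were compared between genes without division by length. The upper group was Aldh1a1 at 652 ± 142 CPM, Rbp2 at 558 ± 223 CPM, Adh1 at 531 ± 116 CPM and Rdh7 at 394 ± 54.7 CPM (mean ± SD, n = 4), neighbours whose ranges over WT libraries overlapped. Their means over all 8 libraries exceeded those of 93.4 to 96.5% of tested genes. The lower group was Isx at 52.4 ± 12.8 CPM, Lrat at 31.9 ± 3.71 CPM, Bco1 at 31.7 ± 30.6 CPM and Dhrs3 at 26.3 ± 5.09 CPM. In this group all WT libraries of Isx lay above those of Lrat, while Lrat and Bco1, and Bco1 and Dhrs3, overlapped. Isx exceeded 65.5% of tested genes, and Lrat, Bco1 and Dhrs3 between 41.0 and 42.3%.

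**Figure D2:**
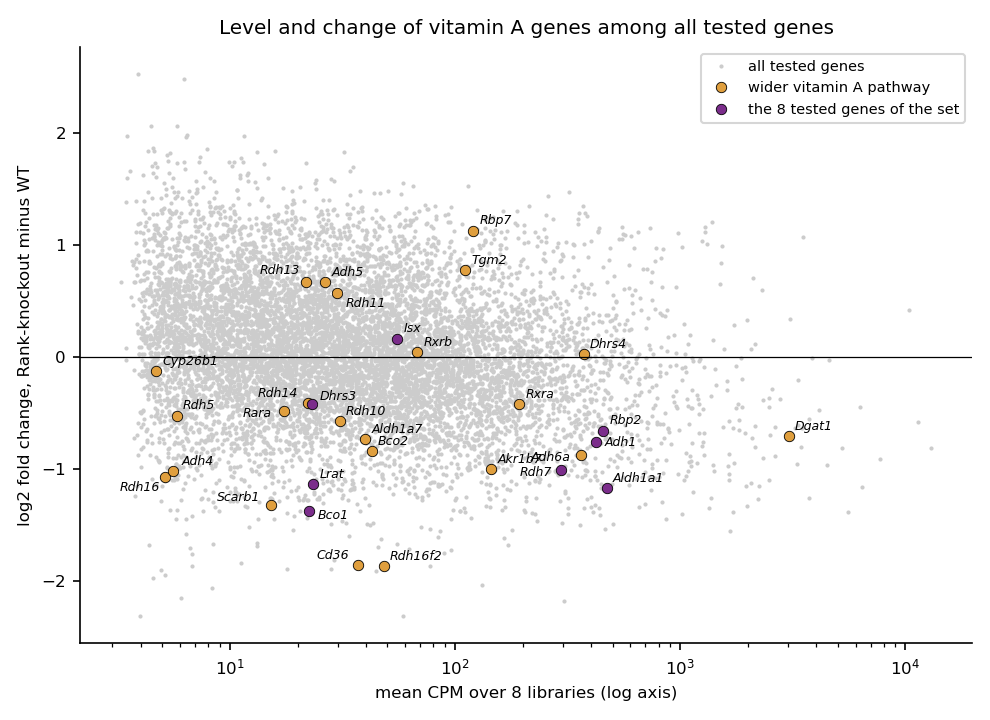
Mean CPM over the 8 libraries (log axis) against the log2 fold change of Rank-knockout over WT, for all 9855 tested genes (grey), the wider vitamin A pathway (orange) and the 8 tested genes of the set (purple). Aldh1a1, Rbp2, Adh1 and Rdh7 sit at 295 to 472 CPM with negative changes, and Isx sits just above 0.

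Bco1 encodes the enzyme that cleaves β-carotene at its centre into retinaldehyde, and lies at chr8:117095854-117133720 on the plus strand (GRCm38). It had 21.9, 13.9, 13.7 and 77.2 CPM in WT libraries 1 to 4 and 3.40, 9.76, 36.4 and 2.90 CPM in Rank-knockout libraries 1 to 4. WT library 4 and Rank-knockout library 3 stood far above the others of their genotype, and Rank-knockout library 3 exceeded 3 of the 4 WT libraries. These values rest on 11 to 116 counts per library. The log2 fold change of -1.37 (SE 1.03) did not pass the test (edgeR adjusted p = 0.363). It was -2.61 without Rank-knockout library 3 (adjusted p = 0.0688) and -0.48 without WT library 4 (adjusted p = 0.775), so that 1 library in either genotype set its size.

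The promoter windows of Bco1 and Rbp2 are shown because both genes serve the absorptive steps and their windows held the letters of a nuclear receptor half-site. All 10 genes had at least 1 window. The sequences are from RefSeq (GRCm38.p6), from 250 bases before to 50 after an annotated start, plus strand, at chr8:117095615-117095914 and chr9:98490287-98490586. Capitals mark 3 motifs searched on both strands. The half-site of nuclear receptors was searched as AGGTCA, which reads TGACCT on the opposite strand. The motif of CDX factors was searched as TTTATG, which then reads CATAAA. For GATA factors the letters were AGATAA, which then read TTATCT.
Bco1: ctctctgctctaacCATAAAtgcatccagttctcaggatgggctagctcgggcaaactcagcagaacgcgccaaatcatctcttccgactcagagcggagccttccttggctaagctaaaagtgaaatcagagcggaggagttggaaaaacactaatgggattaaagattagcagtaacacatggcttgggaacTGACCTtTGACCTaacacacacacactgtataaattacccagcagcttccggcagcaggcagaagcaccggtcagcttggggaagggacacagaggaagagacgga
Rbp2: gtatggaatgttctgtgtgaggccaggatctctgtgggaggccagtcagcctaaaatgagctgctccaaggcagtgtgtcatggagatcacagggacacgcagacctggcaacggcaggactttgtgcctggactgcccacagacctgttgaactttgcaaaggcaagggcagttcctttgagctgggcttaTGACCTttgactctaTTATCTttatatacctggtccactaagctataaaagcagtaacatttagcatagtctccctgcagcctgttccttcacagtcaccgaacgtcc

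The Bco1 window held CATAAA beginning 236 bases before the start, and TGACCT beginning 56 and 49 bases before it. These last letters form a direct repeat with 1 base between its copies, AGGTCANAGGTCA, which was searched after the window had been seen and which 13 of 32851 RefSeq promoter windows held (0.04%). The Rbp2 window held TGACCT beginning 58 bases and TTATCT beginning 43 bases before the start. Among the other genes, an Rdh7 window held CATAAA and TGACCT, a Plb1 window TTTATG, and an Adh1 and an Aldh1a1 window AGATAA, while the windows of Isx, Lrat, Dhrs3 and Rarb held none of these letters. Over all windows 16.3% held the nuclear receptor letters, 11.8% the CDX letters and 11.2% the GATA letters. A match describes letters and not binding.

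Rbp2 encodes the retinol-binding protein of the enterocyte cytosol, which presents retinol to LRAT, and lies at chr9:98486115-98509781 on the plus strand. WT libraries 1 to 4 had 576, 242.5, 652 and 760.2 CPM, and Rank-knockout libraries 1 to 4 had 284, 352, 331 and 445 CPM. WT library 2 lay below all Rank-knockout libraries and the other WT libraries lay above them all. The log2 fold change was -0.65 (SE 0.29), which did not pass edgeR's test (adjusted p = 0.114), and without WT library 2 it was -0.91 (adjusted p = 0.000605). WT library 2 was also the lowest WT library for the summed level of 10 proximal small intestine markers, 5977 CPM beside 7891 to 9624 CPM in the other WT libraries. In Rank-knockout that sum ran from 3505 to 6064 CPM, with 2 of the 9 tested markers lower and a median log2 fold change of -0.64. The 10 ileum markers summed to 3687 to 4080 CPM in WT and 2057 to 2715 CPM in Rank-knockout, with WT library 2 the highest. The part of segment in the Rbp2 values was not tested.

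By Pearson's r on log2 CPM over the 8 libraries, among 6117 other genes with a mean of at least 20 CPM, the genes most like Rbp2 were Trappc10 (r = 0.987), Cideb (r = 0.987) and Bcar1 (r = 0.983). The points share their genotype and library depth, and r is given as a description. All of these genes were, like Rbp2, lowest in WT library 2 and highest in WT library 4. Cideb, which encodes a lipid droplet protein, had 76.3 CPM in WT library 2 and 208 CPM in WT library 4.

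Lrat encodes the enzyme that esterifies RBP2-bound retinol, and lies at chr3:82892579-82903973 on the minus strand. It had 28.1, 29.4, 35.5 and 34.6 CPM in WT and 11.0, 13.1, 24.3 and 11.1 CPM in Rank-knockout. The genotypes did not overlap, and Rank-knockout library 3, which also had the most Bco1 of its genotype, came nearest to WT. Lrat fell by 1.14 on the log2 scale (SE 0.25, edgeR adjusted p = 0.00323), and it passed the test under every alternative of this test that was run, leaving out each library in turn included. Dgat1, a diacylglycerol acyltransferase that can also esterify retinol, was far more abundant and fell from 3753 ± 411 to 2304 ± 552 CPM in the mutant (log2 fold change -0.70, SE 0.18, adjusted p = 0.00821).

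Plb1, a phospholipase B of the brush border that also hydrolyses retinyl esters (chr5:32232708-32366520, plus strand), had 0 counts in all WT libraries and 2, 0, 2 and 1 counts in Rank-knockout libraries 1 to 4. By exact 95% Poisson intervals, 0 counts over the WT libraries allow up to 0.441 CPM, and the pooled 5 counts of Rank-knockout gave 0.373 CPM with an interval from 0.121 to 0.871 CPM. The intervals cover counting error only. At this depth no difference was detectable.

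Adh1, Rdh7 and Dhrs3 encode enzymes that pass retinol and retinaldehyde into each other. Adh1, a cytosolic alcohol dehydrogenase that oxidises retinol as well as ethanol, lies at chr3:138260991-138290698 on the plus strand. It had 586, 630, 365 and 544 CPM in WT and 142, 330, 392 and 397 CPM in Rank-knockout. WT library 3 lay below Rank-knockout libraries 3 and 4, so the genotypes overlapped, and Rank-knockout library 1 was the lowest of all. The log2 fold change of -0.76 (SE 0.29) missed the threshold in edgeR (adjusted p = 0.0712) and passed it in DESeq2 (-0.77, adjusted p = 0.0232) and limma-voom (-0.83, adjusted p = 0.0406), and in edgeR without WT library 3 (-0.91, adjusted p = 0.0403).

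Rdh7, a short-chain dehydrogenase that oxidises retinol, lies at chr10:127884028-127888817 on the minus strand. WT libraries had 358, 372, 371 and 475 CPM and Rank-knockout libraries 73.7, 214, 205 and 292 CPM. All Rank-knockout libraries lay below all WT libraries, and Rank-knockout library 1 was again the lowest. The log2 fold change of Rdh7 was -1.01 with an SE of 0.34, just short of edgeR's threshold (adjusted p = 0.0523). It passed the threshold without Rank-knockout library 1 (-0.73, adjusted p = 0.00679) or 4 (-1.27, adjusted p = 0.016), by DESeq2 (-1.02, adjusted p = 0.00407) and by limma-voom (-1.16, adjusted p = 0.015). Its closest relatives lie beside it on chromosome 10, and 12.9% of 50-base windows of the Rdh7 transcripts occur also in other genes (Rdh18-ps, Rdh1, Rdh16f1 and Rdh19), but 0.57% within the last 500 bases, where tags fall. Of its neighbours, Rdh16f2 fell from 74.7 ± 21.1 to 21.3 ± 8.72 CPM (log2 fold change -1.87, SE 0.28, adjusted p = 0.000606), Rdh16 had a change of -1.07 that did not pass (adjusted p = 0.0705), although it did without WT library 2 (-1.47, adjusted p = 0.00696) or Rank-knockout library 4 (-1.31, adjusted p = 0.0454), and Rdh1, Rdh9 and Rdh19 had 4, 8 and 0 counts in all.

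Dhrs3 works in the opposite direction and reduces all-trans-retinaldehyde to retinol (chr4:144892827-144928209, plus strand). It had 27.4, 24.6, 20.5 and 32.6 CPM in WT and 15.5, 22.5, 22.0 and 19.2 CPM in Rank-knockout, on 30 to 97 counts per library. The genotypes overlapped, with the lowest value again in Rank-knockout library 1. The log2 fold change of -0.42 (SE 0.21) did not pass the test (adjusted p = 0.138).

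Aldh1a1 encodes the cytosolic enzyme that oxidises retinaldehyde to retinoic acid, and lies at chr19:20492715-20643465 on the plus strand. It had 665, 821, 473 and 648 CPM in WT and 137, 385, 369.6 and 274 CPM in Rank-knockout. The lowest WT library exceeded the highest Rank-knockout library, and the Rank-knockout values spread most through library 1. Aldh1a1 fell by 1.17 on the log2 scale (SE 0.29, edgeR adjusted p = 0.0105), and leaving out each library in turn gave -1.33 to -0.93 with adjusted p between 0.00393 and 0.0406. Aldh1a7, its neighbour on chromosome 19, fell by 0.73 (SE 0.24, adjusted p = 0.0313), with overlap, from 49.1 ± 8.68 to 30.4 ± 10.4 CPM, and 3.28% of windows in the last 500 bases of Aldh1a1 occur in Aldh1a7. The Aldh1a7 call was lost when WT library 2 or 3 or Rank-knockout library 1 or 4 was left out (adjusted p between 0.0547 and 0.0801). The other retinaldehyde dehydrogenases were near 0, with 1 count of Aldh1a2, 7 of Aldh1a3 and 0 of Aldh8a1 over all libraries.

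Isx, the intestine-specific homeobox factor, lies at chr8:74873173-74893506 on the plus strand. It had 67.8, 37.2, 48.5 and 55.9 CPM in WT and 54.1, 52.5, 66.5 and 58.8 CPM in Rank-knockout. Every Rank-knockout value lay inside the WT range. For Isx the log2 fold change was 0.17 with an SE of 0.18, which did not pass edgeR's test (adjusted p = 0.526), and it stayed between 0.00 and 0.29 when each library was left out in turn. Of its repressed targets named above, Scarb1, the receptor for lipoproteins and carotenoids, fell from 21.8 ± 7.54 to 8.70 ± 2.91 CPM with overlap (log2 fold change -1.32, SE 0.29, adjusted p = 0.00319). The genes most like Isx over the 8 libraries were Klhl9 (r = 0.962), Pcyox1 (r = 0.935) and Smim10l1 (r = 0.898), by the same measure as for Rbp2.

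Rarb, a retinoic acid receptor that retinoic acid itself induces (chr14:16430839-16819156, minus strand), had 1 count, in Rank-knockout library 2, and 0 in the other 7 libraries. Of the other receptors, Rxra fell from 220 ± 11.7 to 165 ± 11.4 CPM without overlap (log2 fold change -0.42, SE 0.13, adjusted p = 0.021), which was lost without WT library 4 (adjusted p = 0.0541), Rank-knockout library 1 (0.0561) or Rank-knockout library 3 (0.0553), and on library totals (log2 fold change -0.22, adjusted p = 0.175), where the calls of Aldh1a7 and Rdh10 were lost too. The Rxra and Rdh10 calls were also lost with no filter on low counts. Rara had 20.3 ± 4.51 and 14.4 ± 2.38 CPM, without overlap (log2 fold change -0.48, adjusted p = 0.116), and Rxrb 65.9 ± 17.6 and 69.3 ± 13.4 CPM (0.04, adjusted p = 0.886). Rarg had 10 counts and Rxrg 0. Of the enzymes that break down retinoic acid, which it also induces, Cyp26b1 had 4.64 ± 2.67 and 4.76 ± 0.381 CPM (adjusted p = 0.834), with a fitted log2 fold change of -0.12 whose sign differed from that of the means and turned with the scaling and with the library left out, and Cyp26a1 and Cyp26c1 had 0 counts, which by the exact 95% Poisson interval allows up to 0.169 CPM over the 8 libraries.

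Across libraries, Rank-knockout library 1 was the lowest of its genotype for all of the 8 tested genes except Bco1 and Isx, with Lrat nearly level in library 4. The summed level of the 10 genes was 722 CPM there and 1380 to 1499 CPM in the other Rank-knockout libraries, beside 1980 to 2628 CPM in WT. The same library had the highest sum of replication and cell cycle genes, 2654 CPM, and the lowest of proximal markers, 3505 CPM. Their part in these values was not tested. Without it Lrat, Aldh1a1 and Rdh7 were lower.

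**Figure D3:**
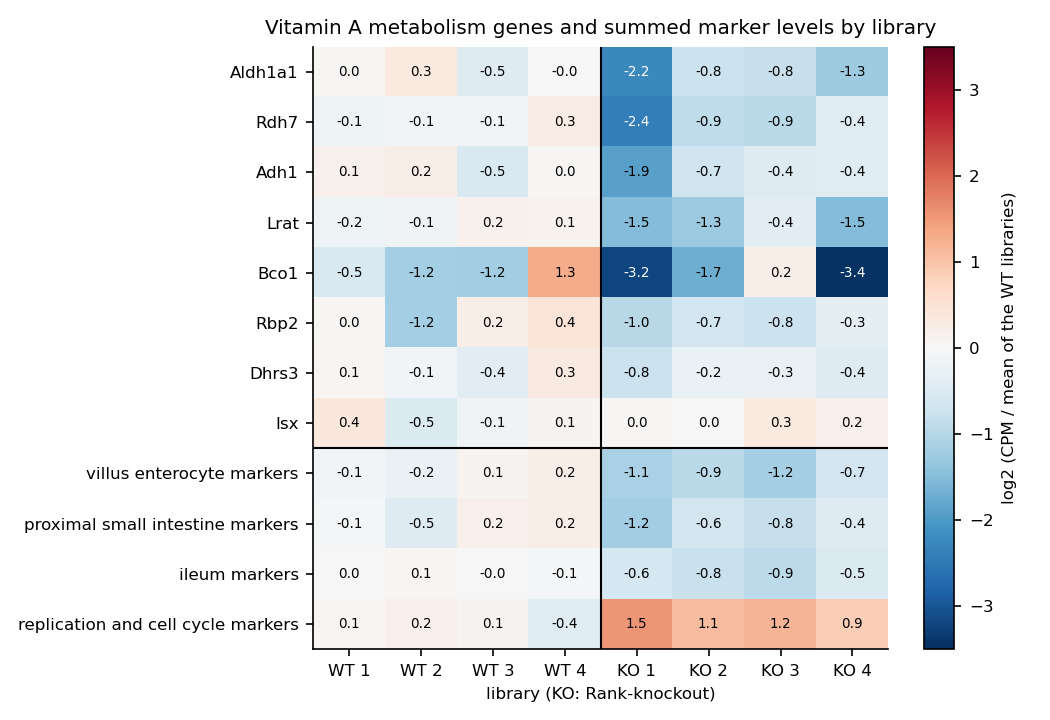
Each cell gives log2 of the CPM in a library over the mean of the 4 WT libraries, for the 8 tested genes (above the line) and for the summed CPM of marker lists (below it). Rank-knockout library 1 is low in most rows and Bco1 varies most between libraries, down to -3.4 in Rank-knockout library 4.

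Since the villus markers were lower too, the genes of the set were also compared relative to them, with the mean log2 CPM of the 20 markers in each library as its scale. On this scale 80.1% of all tested genes were higher in Rank-knockout and 0.203% lower, and the median of all genes was 1.06. The set had a median of 0.10, with 2 of 8 genes higher, Isx and Dhrs3, and 0 lower. Lrat (-0.07, adjusted p = 0.815), Aldh1a1 (-0.19, adjusted p = 0.535), Rdh7 (-0.02, adjusted p = 0.95) and Bco1 (-0.20, adjusted p = 0.854) did not pass the test on this scale, although Bco1 did without Rank-knockout library 3 (-1.51, adjusted p = 0.026) and was at 0.56 without WT library 4. Adh1 was at 0.22 (adjusted p = 0.458) and Rbp2 at 0.43 (adjusted p = 0.0928). Isx rose by 1.21 (SE 0.23, adjusted p = 0.000158) and Dhrs3 by 0.62 (SE 0.25, adjusted p = 0.0285), the former past the median of all genes and the latter short of it. The call of Dhrs3 was lost with the median of the markers as the scale (0.56, adjusted p = 0.0979) and without WT library 3 (0.49, adjusted p = 0.0978), Rank-knockout library 2 (0.58, adjusted p = 0.066) or Rank-knockout library 3 (0.54, adjusted p = 0.0867).

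**Figure D4:**
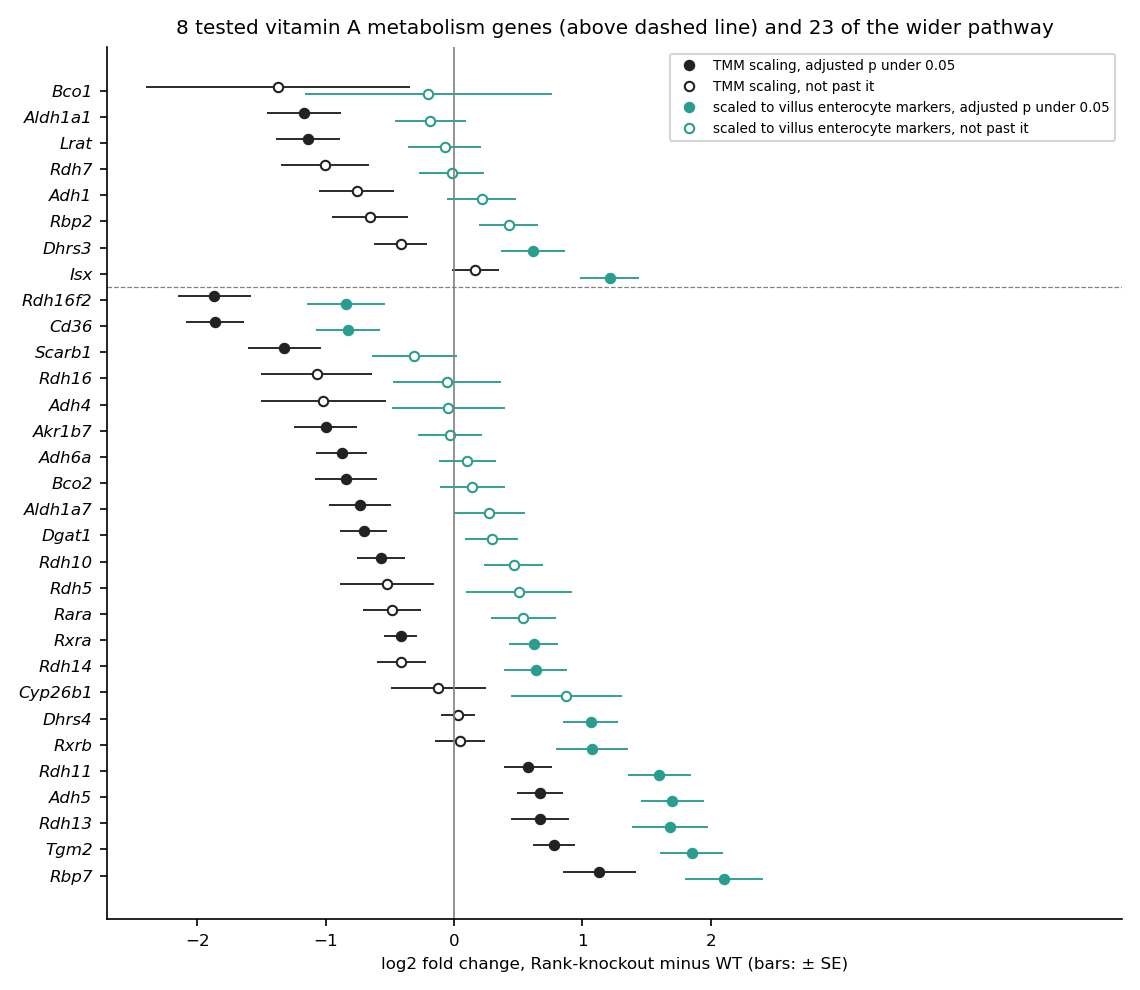
Log2 fold change of Rank-knockout over WT with its SE, for the 8 tested genes of the set (above the dashed line) and the 23 tested genes of the wider pathway, on TMM scaling (black) and relative to villus enterocyte markers (green). Filled points passed an adjusted p of 0.05. On the second scale Lrat, Aldh1a1 and Rdh7 lie between -0.19 and -0.02, Bco1 at -0.20 with a wide SE, and Isx at 1.21.

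The wider pathway was followed through 50 further genes, of which 23 were tested, 10 were lower, 5 higher and 8 passed in neither direction, with a median log2 fold change of -0.52. Over all tested genes 14.6% were lower and 15.8% higher. Of the 27 not tested, 11 had 0 counts in all libraries, among them Stra6, a receptor for retinol-binding protein outside the gut, and the retinoic acid-binding proteins Crabp1 and Crabp2. Counted together with the 10 genes, both tested uptake receptors fell, Scarb1 as above and the fatty acid and carotenoid transporter Cd36. Cd36 had 54.1, 55.2, 46.4 and 74.6 CPM in WT and 9.98, 15.4, 20.7 and 18.5 CPM in Rank-knockout, a log2 fold change of -1.86 (SE 0.23, adjusted p = 0.000138) with no overlap. With Rdh16f2 it was 1 of 2 pathway genes that were lower also relative to the villus markers (Cd36 -0.83, Rdh16f2 -0.84), while 9 of the 23 were higher on that scale, with a median of 0.51, where 0.203% of all genes were lower and 80.1% higher.

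Both tested genes of ester synthesis were lower, Lrat and Dgat1, and both tested retinaldehyde dehydrogenases, Aldh1a1 and Aldh1a7, beside 14.6% of all tested genes. Of 10 tested short-chain dehydrogenases 2 were lower, Rdh16f2 and Rdh10, and 2 higher, Rdh11 and Rdh13, and 6 were neither. These counts are near the shares over all tested genes, 14.6% lower and 15.8% higher. Rdh10 (log2 fold change -0.57, adjusted p = 0.0315) was no longer called without WT library 1 or 4 or Rank-knockout library 1, 2 or 3 (adjusted p between 0.070 and 0.0809). Rdh11 (0.58, adjusted p = 0.0306) was no longer called without WT library 1 or 4 or Rank-knockout library 1, 2 or 4 (0.0534 to 0.110), nor Rdh13 (0.67, adjusted p = 0.0351) when any library but WT 2 and Rank-knockout 4 was left out (0.0549 to 0.128). DESeq2 called neither of them, and Rdh11 was lost when the libraries were thinned to the depth of the shallowest. Of 4 tested alcohol dehydrogenases, neighbours on chromosome 3, Adh6a fell by 0.87 (SE 0.20, adjusted p = 0.0046) and Adh5, best known for clearing formaldehyde, rose by 0.67 (SE 0.18, adjusted p = 0.0105), whereas Adh1 and Adh4 passed in neither direction (Adh4 -1.02, adjusted p = 0.123, but -1.71 without Rank-knockout library 4, adjusted p = 0.0127). Bco2, which cleaves carotenoids off centre in mitochondria, fell by 0.84 (SE 0.24, adjusted p = 0.0168; 0.0501 without Rank-knockout library 3), and the aldo-keto reductase Akr1b7 by 0.999 (SE 0.25, adjusted p = 0.00903).

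Against this direction, Rbp7, another cellular retinol-binding protein, rose. It had 58.9, 111.5, 90.8 and 36.6 CPM in WT and 122, 195, 158 and 190.1 CPM in Rank-knockout, a log2 fold change of 1.13 (SE 0.29, adjusted p = 0.012) with no overlap. Rbp4 had 45 counts in all, too few to test. Tgm2, a protein crosslinking enzyme that retinoic acid is known to induce, rose by 0.78 (SE 0.16, adjusted p = 0.00237), from 81.9 ± 8.99 to 139.9 ± 27.9 CPM.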

How the data were processed

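Intestinal epithelial RNA from 4 WT and 4 Rank-knockout mice was measured by QuantSeq 3′ FWD. As the study's methods state, the authors trimmed reads with BBDuk, removed ribosomal, mitochondrial, phiX and adapter reads with bowtie2, aligned to GRCm38 (mm10) with STAR and Ensembl annotation, and counted with featureCounts on the sense strand. The table they deposited holds whole-number counts of reads for each gene, not normalized. No molecular identifiers are mentioned, so PCR copies count as reads, and reads matching several copies of a sequence may be lost. Total counts of 1530781 to 4335653 per library limit genes with few counts.

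Symbols and positions came from GENCODE M21, in which 54495 of 54532 identifiers were found, and promoters from RefSeq (GRCm38.p6). Of the genes, 33764 had 0 counts throughout. In R 4.3.3, edgeR 4.0.16 (filterByExpr, TMM, quasi-likelihood F-test, robust, genotype as the only term) tested 9855 genes, with Benjamini-Hochberg adjustment. SE was derived from the F statistic. Titles name separate mice as replicates. Alternatives were other scalings, no filter or a mean of at least 5 CPM, DESeq2 1.42.0, limma 3.58.1 (voom), a replicate block, thinning to the shallowest library, and leaving out each library. The test was checked on simulated counts. The named genes were all 10 genes of the set, Tnfrsf11a, wider pathway genes past the threshold, near copies, receptors and Cyp26 genes, and the 3 genes most like Rbp2 and Isx. Some further pathway genes, among them Adh4, Rbp4, Crabp1 and Crabp2, and single marker genes were named in addition. The genes and lists were chosen with earlier results of these data known.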

Additional observations from a re-analysis of the deposited data

Results flagged for a closer look

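In 5 of 72 sets of 4 libraries, each the values of 1 gene, marker list or total in 1 genotype, 1 library lay far from the other 3 by Dixon's test, where chance alone gives about 3.6 such sets (1 in 20). Lrat had 24.3 CPM in Rank-knockout library 3, beside 11.0 to 13.1 CPM in the others of its genotype. Bco1, the β-carotene cleaving enzyme, had 77.2 CPM in WT library 4, beside 13.7 to 21.9 CPM in the others. Rdh7 had 475 CPM in WT library 4, beside 358 to 372 CPM. Rdh10, a retinol dehydrogenase, had 27.9 CPM in Rank-knockout library 4, beside 22.9 to 23.6 CPM. The total count of WT library 2 was 4335653, beside 1530781 to 1616024 in the other WT libraries, and the same library had the lowest WT values of Rbp2 and Isx.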

How the results depend on the processing

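Of the set, 2 genes were lower by edgeR, 5 without the filter on low counts, 4 by DESeq2, 4 by limma-voom and 2 to 3 when each library was left out. Over all tested genes 14.6%, 6.66%, 12.7% and 14.4% were lower by the first 4 of these, in that order. With libraries left out, the number lower ran from 1097 (of 9760, without Rank-knockout library 1) to 1564 (of 9883, without WT library 2). In the wider pathway 5 genes were higher, 3 by DESeq2 (Rdh11 and Rdh13 lost) and 3 to 5 when each library was left out (3 without WT library 1 or 4, or Rank-knockout library 1 or 2). Over all genes 1555 of 9855 were higher, 1305 of 11505 by DESeq2, and 1020 to 1723 when each library was left out. In the same pathway 10 were lower, 7 on library totals and without the 50 most abundant genes (Rxra, Aldh1a7 and Rdh10 lost), 8 without the filter (Rxra and Rdh10 lost), 12 with the replicate block and 7 to 11 when each library was left out. Beside these, 1438 of 9855 were lower over all genes, 859 and 1007 on those scalings, 1383 of 20768 without the filter and 1602 with the block. Relative to villus markers 2 genes of the set were higher, 1 with the median of the markers and 1 to 2 when each library was left out, and 0 were lower, 0 to 1 when each was left out, the 1 being Bco1 without Rank-knockout library 3 (-1.51, adjusted p = 0.026). For single genes 535 of 552 alternative values kept their direction, and 17 turned, none of them past the threshold. Left out 1 at a time, libraries turned Rxrb to between -0.092 and 0.26, and Cyp26b1 to -0.32 to 0.49. Relative to villus markers they gave -0.41 to 0.10 for Lrat, -1.51 to 0.56 for Bco1, -0.37 to 0.063 for Aldh1a1 and -0.19 to 0.22 for Rdh7. Cyp26b1 was also 0.086 on library totals and 0.016 on library sizes without the 50 most abundant genes. The causes were not tested.

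No label says that replicate numbers pair the samples. Deviations of same-numbered samples correlated at 0.06, 0.17, -0.22 and 0.45, and samples with number 4 alone matched each other best. So few correlations cannot decide whether the numbers pair animals. A replicate block gave 3 lower genes of the set, Rdh7 added (-1.14, adjusted p = 0.0114), added Rdh16 (-1.16, adjusted p = 0.0327) and Adh4 (-1.16, adjusted p = 0.0355), turned Cyp26b1 to 0.0064, and relative to villus markers gave 0.49 for Rbp2 (adjusted p = 0.03). Of all genes called, 52.0% were higher, 74.9% on library totals, where the median gene shifted by 0.20, and 68.3% without the 50 most abundant genes, shifted by 0.13. Low counts limit Plb1 and Rarb.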
